A study of Mus musculus with 19 samples.

Results

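The mature B cell genes are Cd79a, Cd79b, Ms4a1, Cd22, Pax5, Blk, Cr2, Fcer2a and Blnk, 9 genes chosen as markers of B cells. Whether other blood leukocytes add to their signal was not tested. Their members were every non-control probe that carries one of these names in the scanner files, which gave 13 probes of 41174 on the array. Ms4a1, Cd22, Cr2 and Pax5 have 2 probes each, and of each pair the brighter is called the first probe and the dimmer the second. In the study, leukocyte RNA from the blood of male DBA/2 and B6 mice was hybridized to single-color Agilent arrays after CAWS, a water-soluble mannoprotein and beta-glucan fraction of Candida albicans that causes vasculitis in mice. CAWS was injected intraperitoneally on consecutive days, and 0 w is the time just after the last injection. The labels count time from CAWS administration in every group and name neither a dose nor an untreated group. Each strain was sampled at 0 w and again in weeks 2, 4, 8 and 9, which gives 10 groups, of which 8 hold 2 samples and the B6 groups of 2 w and 9 w hold 1 each. The methods give the age only as one range over all mice, and say that the labelled RNA came from individual mice. Only mice that had survived to each week were sampled, and DBA/2 mice die of the disease more often than B6 mice.

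B cells recognize antigen through the B cell receptor, a membrane immunoglobulin that signals through the chains encoded by Cd79a and Cd79b. Kinases of the Src family such as Blk act just downstream, the adaptor encoded by Blnk links the receptor to calcium signalling, and the coreceptors encoded by Cr2 and Cd22 raise and lower the signal. Pax5 is the transcription factor that holds cells in the B lineage, Ms4a1 encodes CD20, and Fcer2a encodes CD23, the low affinity IgE receptor of follicular B cells. Plasma cells lose most of these mRNAs.

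The 18 samples, on 19 arrays, had from 33.9% to 51.4% of spots well above background by the scanner software's own call. Of the 13 member probes, 10 were well above background in all 18 samples, among them that of Cd79b and the first probe of Ms4a1. The second probe of Cd22 was well above background in 11 samples and the Blk probe in 10, and the second probe of Pax5 in 1, so that it could not be tested and 12 member probes were. Values are log2 of the deposited signal minus the 75th percentile of the array, and differences between groups are given as log2 changes with their standard error from limma, with p-values adjusted by the Benjamini-Hochberg method over all probes tested and a threshold of 0.05. A change passed the test, or is said to have risen or fallen, where its adjusted p was below that threshold. Hepatocyte genes stood apart in B6 mice at 0 w and 8 w. There the summed scaled signal of their 13 genes with a probe was from 27.3 to 48.7, against from 1.14 to 2.55 in all other samples. In each other group from 4 to 6 of the 13 genes were well above background in all samples. Alb, one of them, fell in DBA/2 mice by 3.92 ± 0.43 at 8 w, where 2 of the 13 fell and 1 rose. At 9 w it fell by 3.12 ± 0.43, where 1 of the 13 fell and 1 rose. The array of DBA/2 9 w replicate 2 had 1187 spots marked as outliers, against at most 180 on any other array.

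Promoter windows from RefSeq, on build GRCm38.p6, were at hand for 6 of the 9 genes and hold 250 bases before and 50 after a start site. Those of Blnk and Cd79a are printed because both genes act at the same receptor, and the Blnk probe followed the other members across the samples while the Cd79a probe did not. The Blnk window is chr19:40994172-40994471 on the minus strand and the Cd79a window chr7:24897247-24897546 on the plus strand. Capitals mark 4 short motifs that were searched on both strands, the octamer ATGCAAAT bound by Oct factors, AGGAAGT of the Ets type, CCCNNGGG of the Ebf type and the E-box CAGGTG of the E2A type. None of the marked motifs overlap in these windows.
Blnk: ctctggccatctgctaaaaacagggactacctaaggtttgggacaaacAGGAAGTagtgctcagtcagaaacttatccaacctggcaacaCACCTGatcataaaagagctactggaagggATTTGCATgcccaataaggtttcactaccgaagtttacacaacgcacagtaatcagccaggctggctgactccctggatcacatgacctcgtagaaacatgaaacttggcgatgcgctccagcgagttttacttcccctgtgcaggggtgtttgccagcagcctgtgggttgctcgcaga
Cd79a: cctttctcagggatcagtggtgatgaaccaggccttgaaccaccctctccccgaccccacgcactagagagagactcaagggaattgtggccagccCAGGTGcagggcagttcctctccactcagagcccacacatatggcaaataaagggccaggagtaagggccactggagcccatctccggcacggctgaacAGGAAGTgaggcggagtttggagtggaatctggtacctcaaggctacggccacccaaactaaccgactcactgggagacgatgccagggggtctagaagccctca
The octamer was found in the Blnk window and in no other of the 8 member windows, and 1.74% of the 32851 windows of the table hold it. AGGAAGT was found in the Blnk and Cd79a windows, against 9.35% of all windows, CCCNNGGG in the Cd22 window, against 13.7%, and CAGGTG in 1 window each of Blnk, Cd22, Cd79a, Cr2 and Fcer2a, against 20.2%. A match describes the letters only.

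In DBA/2 mice Cd79b, Blnk, Cd22, Ms4a1, Fcer2a, Pax5 and Blk had their highest mean just after CAWS, while Cd79a and the first Cr2 probe did not. Of the 12 member probes tested, 9, 5, 7 and 10 fell against 0 w in weeks 2, 4, 8 and 9, and the first Cr2 probe rose at 4 w. Among all probes tested 7.82%, 7.22%, 14.0% and 14.3% fell in those weeks. The median change over the 12 probes was -0.84, -0.31, -0.61 and -0.99 in the same order, against -0.05, -0.10, -0.18 and -0.03 over all probes tested. In RNA from whole blood leukocytes, fewer B cells and less mRNA per B cell cannot be told apart. With the normexp background correction in place of the processed signal, 3, 0, 2 and 5 probes fell at the 4 weeks. Under it the median change of all probes moved by 0.06, -0.03, 0.10 and 0.81 relative to the main scale. At 4 w only 3 passed the test, in either direction, without DBA/2 0 w replicate 1, without DBA/2 4 w replicate 1 or without DBA/2 4 w replicate 2. Without DBA/2 9 w replicate 2, 8 probes fell at 9 w.

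By the median over the probes the low points in DBA/2 mice were at 2 w and 9 w, with higher levels between them. From 2 w to 4 w, 5 probes rose, against 4.80% of all probes, which were those of Cd79b, Blnk and Cr2 (first probe) and both probes of Ms4a1. From 4 w to 8 w, 2 probes fell, the first probes of Cd22 and Cr2, against 4.83%. From 8 w to 9 w, 5 probes fell, those of Cd79b, Blnk and Fcer2a and both of Ms4a1, against 6.73%. These 3 comparisons were added with the data known. The rise from 2 w to 4 w was down to 1 probe without DBA/2 2 w replicate 2 and to 2 without DBA/2 4 w replicate 1, and the fall from 4 w to 8 w to 0 or 1 without any single DBA/2 sample of 0 w to 8 w or B6 sample of 0 w, 4 w or 8 w. With the replicate number, which is also the slide and scan day of these samples, as a block, 8 probes rose from 2 w to 4 w and 5 fell from 4 w to 8 w, and with slide as a random block 9 and 4 did. The share of all probes called under these block fits was not taken.

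In B6 mice the same genes did not move in one direction. At 2 w, where the B6 arm is a single sample whose spread is taken from the other groups, 4 probes passed the test as higher, at 4 w 7 probes fell, and at 8 w only the second Cr2 probe rose. At 9 w, again a single sample, limma called 0 member probes, 3 with an unadjusted p below the threshold, and 1 with the replicate number as a block. Among all probes tested 5.28% rose at 2 w, 9.66% fell at 4 w, and 21.2% at 8 w and 9.33% at 9 w moved in either direction. At 2 w the count was 2 without either B6 0 w sample. The B6 sample of 2 w also stood apart in platelet genes, of which 8 of 8 fell with a median of -1.51 and a summed scaled signal of 135.7, against from 366 to 376 at 0 w, and their part in the result was not tested. The fall at 4 w was down to 1 probe without either B6 0 w sample, to 3 without B6 4 w replicate 1 and, without B6 4 w replicate 2, to 1 probe that rose. At 8 w the count was 0 without B6 0 w replicate 2 or B6 8 w replicate 2 and 2 without either DBA/2 8 w sample, and at 9 w it was 1 without either DBA/2 9 w sample. Each B6 comparison with 0 w rests on samples high in hepatocyte genes, and those in weeks 2, 4 and 9 also on samples that are low in them, with 12, 11 and 11 of the 13 hepatocyte genes lower than at 0 w. Their part in the result was not tested. Against the mean of 2 w and 9 w, where the hepatocyte sums were low on both sides, 6 member probes fell at 4 w, against 8.86% of all probes. In that comparison 3 of the 13 hepatocyte genes fell too. Its reference is the single samples of 2 w and 9 w, and the one of 2 w is that with low platelet genes. There 8 of 8 platelet genes rose and 7 of 10 tested monocyte genes fell, and their part was not tested.

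**Figure D1:**
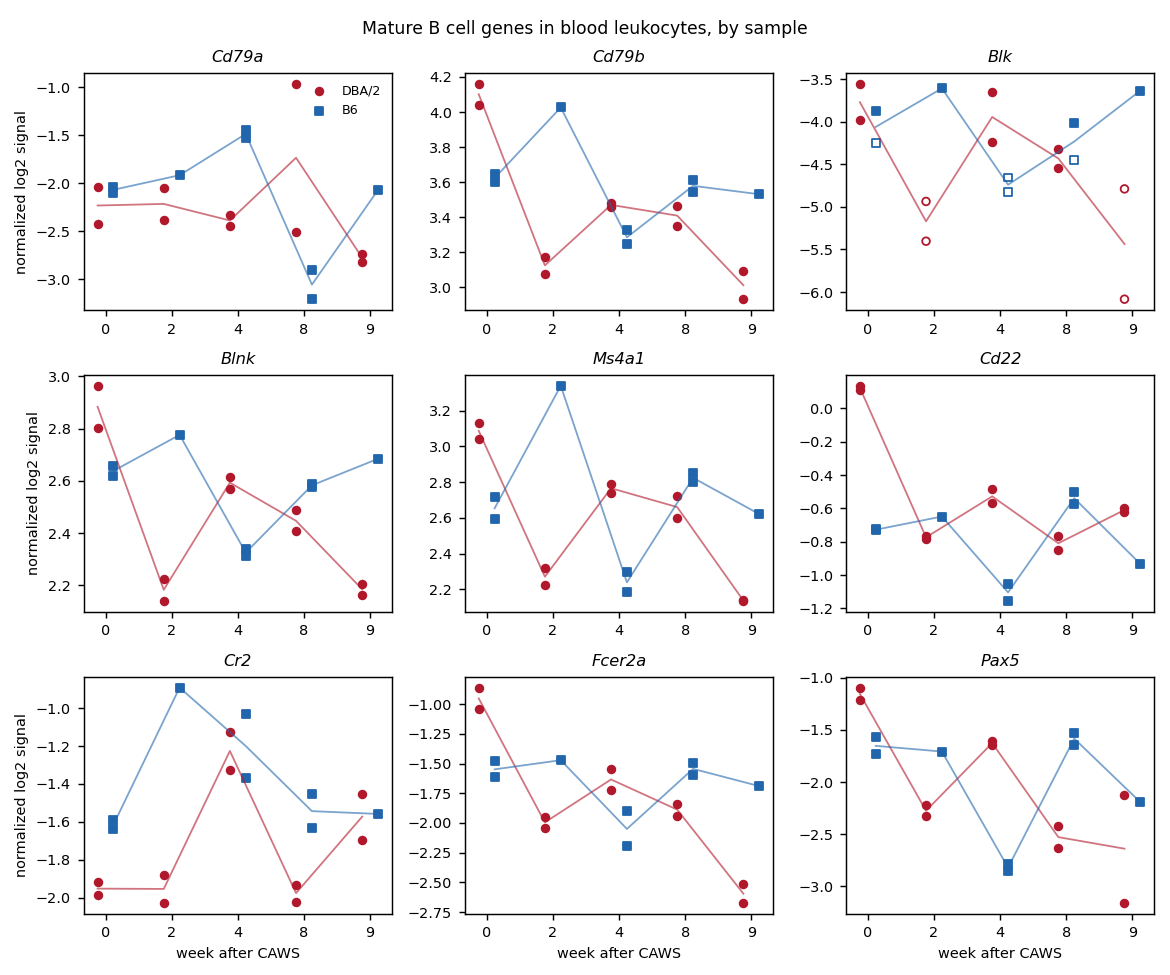
Normalized log2 signal (log2 of the signal minus the array's 75th percentile, y axis, a scale of its own in each panel) of the first or only probe of the 9 genes in each sample, by week (x axis) and strain; filled points are well above background on every array of the sample, open points are not, and lines join group means. In DBA/2 mice Cd79b, Blnk, Ms4a1, Cd22, Fcer2a and Pax5 were highest at 0 w, and in B6 mice these 6 genes were lowest at 4 w.

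Cd79b, the signalling chain of the B cell receptor, was measured by a probe at chr11:106127556-106127615 of mm8. The DBA/2 samples had normalized log2 signals of 4.16 and 4.04 at 0 w, 3.18 and 3.08 at 2 w, 3.48 and 3.46 at 4 w, 3.47 and 3.35 at 8 w, and 3.09 and 2.93 at 9 w. The B6 samples had 3.65 and 3.60 at 0 w, 4.03 at 2 w, 3.32 and 3.25 at 4 w, 3.61 and 3.55 at 8 w, and 3.53 at 9 w. Both DBA/2 samples at 0 w lay above all other DBA/2 samples and above all B6 samples, and no later DBA/2 sample overlapped with 0 w. Relative to 0 w the DBA/2 level was 50.9%, 64.6%, 61.9% and 47.0% in weeks 2, 4, 8 and 9. The log2 change was -0.98 ± 0.09 (SE) at 2 w (limma adjusted p = 0.00018) and -1.09 ± 0.09 at 9 w (limma adjusted p = 3.5e-05). The B6 level of Cd79b rose by 0.40 ± 0.11 at 2 w, in a single sample, and fell by 0.34 ± 0.09 at 4 w.

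The partner chain Cd79a did not follow by its only probe, which had a median signal of 83.6, against 4106 for that of Cd79b. Whether the probe or the mRNA of Cd79a differs was not tested. Its probe, whose 60 bases are placed over 258 bases of genome at chr7:24608094-24608351 of mm8, gave -2.42 and -2.04 at 0 w, -2.38 and -2.05 at 2 w, -2.33 and -2.45 at 4 w, -2.50 and -0.96 at 8 w, and -2.73 and -2.82 at 9 w in DBA/2 mice. It gave, in B6 samples, -2.04 and -2.10 at 0 w, -1.91 at 2 w, -1.53 and -1.44 at 4 w, -3.21 and -2.90 at 8 w, and -2.07 at 9 w. The DBA/2 8 w samples lay on either side of all other DBA/2 samples but the 9 w ones, and in B6 mice the 4 w samples were high and the 8 w samples low. No change of the Cd79a probe passed the test in any of the 21 comparisons, and its standard error, 0.39 against DBA/2 0 w, was over 4 times that of Cd79b. Across the 18 samples its Pearson correlation with the mean of the other 8 genes was r = -0.11, against 0.94 for Cd79b and 0.94 for Blnk, as a description over samples that share groups and slides.

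Blnk, the adaptor, was measured at chr19:40982249-40982308 of mm8. Its normalized log2 signal in the DBA/2 samples was 2.96 and 2.80 at 0 w, 2.23 and 2.14 at 2 w, 2.62 and 2.57 at 4 w, 2.49 and 2.41 at 8 w, and 2.21 and 2.16 at 9 w. The B6 signal was 2.62 and 2.66 at 0 w, 2.78 at 2 w, 2.31 and 2.34 at 4 w, 2.58 and 2.59 at 8 w, and 2.68 at 9 w. The DBA/2 samples kept the order 0 w, 4 w, 8 w and then 2 w and 9 w, and the last pair overlapped. Blnk fell by 0.70 ± 0.08 at 2 w (limma adjusted p = 0.00054), by 0.29 ± 0.08 at 4 w, by 0.44 ± 0.08 at 8 w and by 0.70 ± 0.08 at 9 w (limma adjusted p = 0.00022) in DBA/2 mice, and by 0.31 ± 0.08 at 4 w in B6 mice.

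Blk, the Src family kinase, was close to background. Its probe (placed over chr14:62332606-62333743 of mm8) gave -3.98 and -3.56 at 0 w, -5.40 and -4.94 at 2 w, -4.24 and -3.65 at 4 w, -4.32 and -4.55 at 8 w, and -6.08 and -4.79 at 9 w in DBA/2 mice. On no array of 2 w or 9 w was the probe well above background. For a bound, the lowest signal well above background on each array, or the probe's own where higher, stood for the dim side. At 2 w the probe's own signals were the higher, so that the fold is the plain estimate and not a bound. Blk was 2.64-fold lower at 2 w than at 0 w in DBA/2 mice (log2 change -1.40 ± 0.39, limma adjusted p = 0.041). At 9 w it was at least 1.83-fold lower than at 0 w (limma adjusted p = 0.012). With the normexp background correction the log2 change was -0.28 at 2 w and turned to 0.74 at 9 w, neither past the test. At 9 w that correction moved the median change of all probes by 0.81. In B6 mice it gave -3.87 and -4.25 at 0 w, -3.61 at 2 w, -4.65 and -4.83 at 4 w, -4.02 and -4.45 at 8 w, and -3.63 at 9 w, with no change past the test.

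Ms4a1, which encodes CD20, gave the same course on both of its probes, 401 bases apart in mm8 (chr19:11317922-11317981 and chr19:11318382-11318441). The first probe stood at 3.13 and 3.04 at 0 w, 2.32 and 2.22 at 2 w, 2.79 and 2.74 at 4 w, 2.72 and 2.60 at 8 w, and 2.14 and 2.13 at 9 w in DBA/2 mice. Among B6 samples the values were 2.59 and 2.71 at 0 w, 3.34 at 2 w, 2.29 and 2.18 at 4 w, 2.85 and 2.80 at 8 w, and 2.62 at 9 w. The B6 sample at 2 w was thus the highest of all 18, and the DBA/2 samples at 9 w the lowest. In DBA/2 mice the first probe fell by 0.82 ± 0.08 at 2 w (limma adjusted p = 0.00036) and by 0.95 ± 0.08 at 9 w (limma adjusted p = 5.9e-05), and the second by 0.82 ± 0.09 and 1.02 ± 0.09. In the single B6 sample of 2 w the first probe rose by 0.69 ± 0.10 and the second by 0.80 ± 0.11, with standard errors that rest on the spread in other groups, and they fell by 0.41 ± 0.08 and 0.32 ± 0.09 at 4 w.

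Cd22, the inhibitory coreceptor, was lower than at 0 w at every later week in DBA/2 mice. Its first probe (chr7:30575331-30575390 of mm8) stood at 0.11 and 0.14 at 0 w, -0.78 and -0.76 at 2 w, -0.49 and -0.57 at 4 w, -0.85 and -0.77 at 8 w, and -0.60 and -0.62 at 9 w in DBA/2 mice. In B6 mice it stood at -0.73 and -0.73 at 0 w, -0.65 at 2 w, -1.05 and -1.16 at 4 w, -0.50 and -0.58 at 8 w, and -0.93 at 9 w. The DBA/2 0 w samples were the only ones above 0, and from 2 w on all DBA/2 samples but one at 4 w lay in the range of the B6 ones. Cd22 fell by 0.90 ± 0.07 at 2 w, by 0.65 ± 0.07 at 4 w, by 0.93 ± 0.07 at 8 w (limma adjusted p = 2.2e-05) and by 0.73 ± 0.07 at 9 w in DBA/2 mice and by 0.38 ± 0.07 at 4 w in B6 mice. The second probe, which is placed over 1325 bases of mm8 at chr7:30584884-30586208, was dimmer, and its only fall past the test was at 9 w, where no DBA/2 array was well above background and it was at least 1.68-fold lower than at 0 w (limma adjusted p = 0.037). With normexp this change turned to 0.76.

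Cr2, which encodes the complement receptors CD21 and CD35, gave different courses on its 2 probes in DBA/2 mice. They lie 22119 bases apart in mm8, the first at chr1:196864079-196864138 and the second at chr1:196841901-196841960, both on the minus strand. The first probe stood at -1.99 and -1.92 at 0 w, -1.88 and -2.03 at 2 w, -1.12 and -1.33 at 4 w, -1.93 and -2.02 at 8 w, and -1.45 and -1.69 at 9 w in DBA/2 mice. The second stood at -1.97 and -2.30 at 0 w, -2.82 and -3.14 at 2 w, -2.14 and -2.44 at 4 w, -2.50 and -2.87 at 8 w, and -2.89 and -3.11 at 9 w in the same samples.

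By the first probe Cr2 rose at 4 w (0.73 ± 0.14, limma adjusted p = 0.0069) and the samples at 2 w and 8 w overlapped with 0 w. By the second probe it fell at 2 w (-0.85 ± 0.20, limma adjusted p = 0.019) and at 9 w (-0.87 ± 0.20, limma adjusted p = 0.011) and the samples at 4 w overlapped with 0 w. With normexp the second probe's change was -0.36 at 2 w and turned to 0.36 at 9 w. In B6 mice the first probe stood at -1.59 and -1.64 at 0 w, -0.89 at 2 w, -1.03 and -1.37 at 4 w, -1.45 and -1.63 at 8 w, and -1.56 at 9 w, and the second at -2.93 and -3.19, -2.51, -2.43 and -2.77, -2.22 and -2.14, and -2.28. All later B6 samples thus lay above 0 w on the second probe, and its rise of 0.88 ± 0.20 at 8 w (limma adjusted p = 0.012) and that of the first probe of 0.72 ± 0.17 in the single sample of 2 w passed the test, the former turning to -0.14 with normexp. The 2 probes changed in the same direction in 7 of the 13 comparisons that were planned, against 12 for each of the pairs of Ms4a1 and Cd22. The correlation with the mean of the other 8 genes over 18 samples was 0.03 for the first probe and 0.59 for the second.

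**Figure D2:**
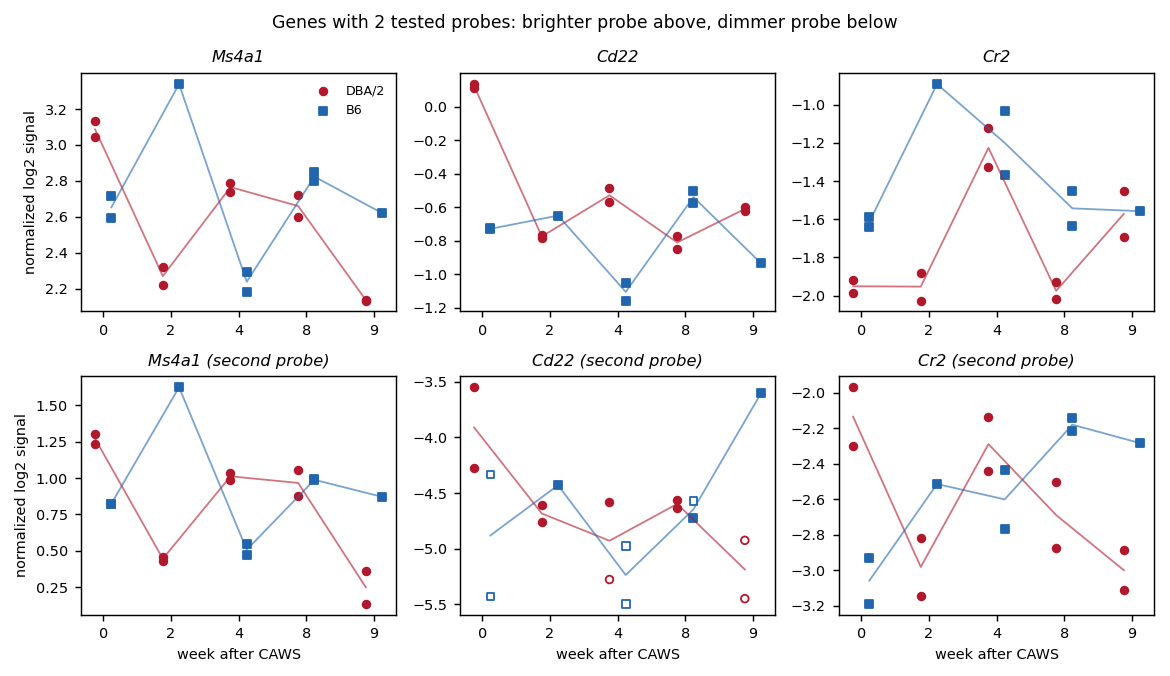
Normalized log2 signal (y axis, a scale of its own in each panel) by week (x axis) for the genes with 2 tested probes, the first probe above and the second below, with filled points well above background on every array of the sample, open points not, and lines through group means. Both Ms4a1 probes gave one course, while for Cr2 the first probe was highest at 4 w in DBA/2 mice and the second at 0 w.

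Fcer2a, which encodes CD23, was lower than at 0 w at every later week in DBA/2 mice. Its probe (chr8:3682021-3682080 of mm8) stood at -0.86 and -1.04 at 0 w, -1.95 and -2.04 at 2 w, -1.54 and -1.72 at 4 w, -1.84 and -1.94 at 8 w, and -2.52 and -2.67 at 9 w in DBA/2 mice. The B6 values were -1.48 and -1.62 at 0 w, -1.47 at 2 w, -1.90 and -2.20 at 4 w, -1.49 and -1.60 at 8 w, and -1.69 at 9 w. The DBA/2 samples at 0 w were the highest and those at 9 w the lowest of all 18. Relative to 0 w the DBA/2 level was 48.5%, 62.3%, 52.2% and 32.0% in weeks 2, 4, 8 and 9, with a log2 change of -1.64 ± 0.13 at 9 w (limma adjusted p = 2.6e-05). With normexp the change at 9 w was -0.43 (limma adjusted p = 0.28), and that from 8 w to 9 w turned to 0.20. The B6 level fell by 0.50 ± 0.13 at 4 w.

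Pax5, the lineage factor, was read by a first probe at chr4:44546164-44546223 of mm8, whose accession in the files is that of a cDNA clone. It stood at -1.10 and -1.22 at 0 w, -2.22 and -2.33 at 2 w, -1.64 and -1.61 at 4 w, -2.42 and -2.63 at 8 w, and -2.12 and -3.16 at 9 w in DBA/2 mice. The B6 samples stood at -1.57 and -1.74 at 0 w, -1.71 at 2 w, -2.79 and -2.85 at 4 w, -1.53 and -1.64 at 8 w, and -2.19 at 9 w. It fell by 1.12 ± 0.26 at 2 w (limma adjusted p = 0.018), by 1.37 ± 0.26 at 8 w (limma adjusted p = 0.0041) and by 1.48 ± 0.26 at 9 w (limma adjusted p = 0.0025) in DBA/2 mice. The B6 samples at 4 w were the lowest B6 samples, and Pax5 fell by 1.17 ± 0.26 there. At 4 w the DBA/2 samples also lay below 0 w, but the change of -0.47 ± 0.26 did not pass the test.

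**Figure D3:**
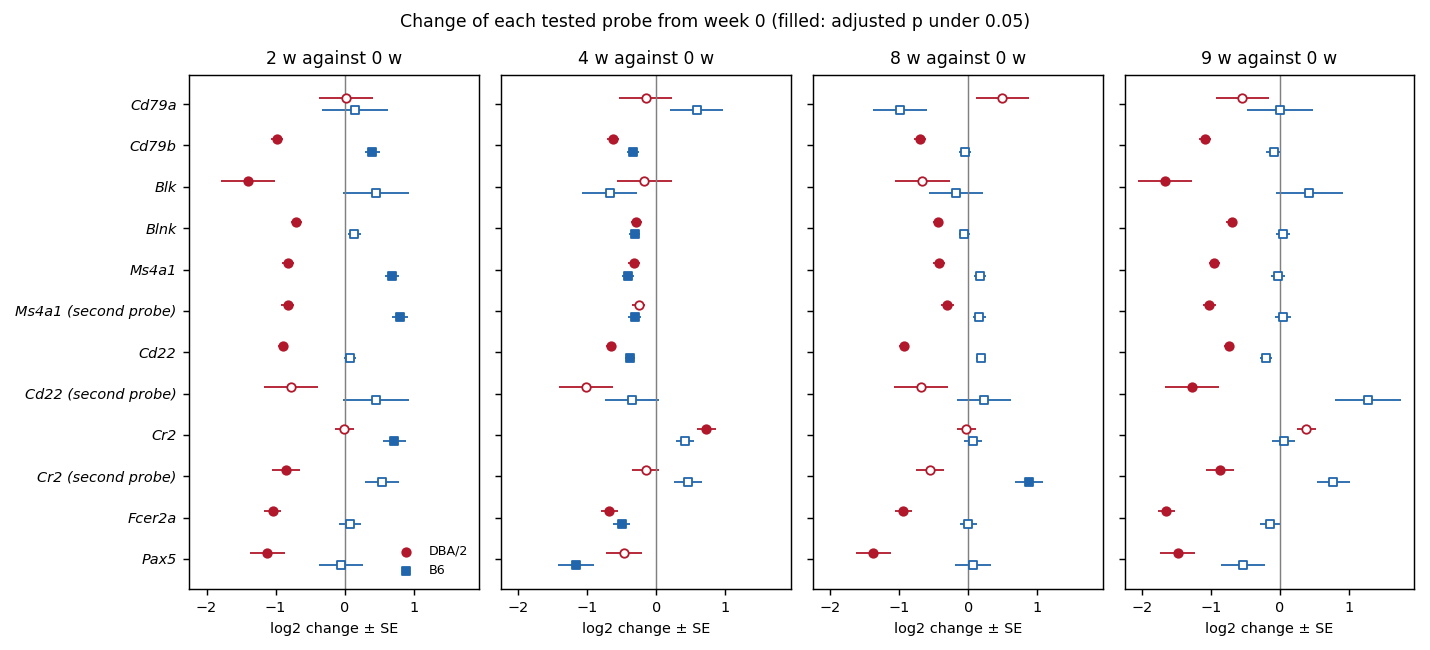
Log2 change from 0 w with its standard error (x axis) of the 12 tested member probes (y axis) at each later week in both strains; filled points passed the limma test at an adjusted p below 0.05 and open points did not. At 2 w and 9 w most DBA/2 points are filled and below 0 while the B6 points lie around or above 0, and at 4 w both strains have filled points below 0.

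On the mean of 4 w and 8 w, the later weeks with 2 samples in both strains, 7 of the 12 probes passed the test as lower than at 0 w in DBA/2 mice, against 13.1% of all probes. In B6 mice only the second Cr2 probe passed it, as higher, where 15.0% of all probes moved in either direction. The DBA/2 count was 3 without DBA/2 0 w replicate 1. The strain difference, for which the B6 change is taken from the DBA/2 change, passed the test as below 0 for 4 probes, those of Cd79b, Cd22 (first probe), Cr2 (second probe) and Fcer2a, against 6.73% of all probes. It was -0.47 ± 0.11 for Cd79b (limma adjusted p = 0.020), -0.70 ± 0.09 for Cd22 (limma adjusted p = 0.0010), -1.02 ± 0.24 for Cr2 and -0.56 ± 0.15 for Fcer2a. With normexp or the T cell scaling 0 probes passed, and 7 did with pan-leukocyte scaling. With the authors' value table, which was not scaled between arrays, 10 passed. The share of all probes that passed under these settings was not taken. The values under normexp were -0.19 for Cr2 and -0.32 for Fcer2a. The count was 1 without DBA/2 0 w replicate 1, 2 without B6 0 w replicate 1 and 1 without B6 0 w replicate 2, and hepatocyte genes, of which 6 of 13 had a strain difference above 0, moved with it, in a part that was not tested. The B6 count of 1 was 0 without any single B6 sample of 0 w or 8 w or without B6 4 w replicate 1, and 2 without either DBA/2 9 w sample, and with the replicate number as a block it was 3.

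Week by week, the DBA/2 change passed the test as lower than the B6 change for 7 probes at 2 w, 8 at 8 w and 8 at 9 w, against 7.12%, 10.3% and 5.94% of all probes. The B6 arm at 2 w and 9 w is 1 sample each, whose spread is taken from the other groups, and the one of 2 w is that with low platelet genes. At 4 w limma called 0 of the 12 probes, 2 with an unadjusted p below the threshold and 2 with the replicate number as a block, where 11.8% of all probes differed in either direction. At 8 w, when B6 hepatocyte genes were high on both sides of the B6 comparison and 1 of 13 rose and 2 fell, the difference was -0.65 ± 0.12 for Cd79b, -1.12 ± 0.10 for Cd22 (limma adjusted p = 0.00019), -0.94 ± 0.18 for Fcer2a and -1.44 ± 0.37 for Pax5. At 4 w the count was 1, a probe that differed upward, without either DBA/2 9 w sample. The count at 8 w was 5 without DBA/2 0 w replicate 1, DBA/2 8 w replicate 2 or any single B6 sample of 0 w or 8 w. These weekly differences were added with the data known.

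The strains also differed in level at 0 w and at 4 w. At 0 w 7 probes were higher in DBA/2 than in B6 mice, against 17.2% of all probes, and at 4 w 6 were, against 19.1%. At 0 w the difference was 0.85 ± 0.07 for Cd22 (limma adjusted p = 2.4e-05), 0.92 ± 0.20 for the second Cr2 probe, 0.60 ± 0.13 for Fcer2a, 0.48 ± 0.09 for Cd79b and 0.43 ± 0.08 for the first Ms4a1 probe. At 4 w it was 0.58 ± 0.07 for Cd22 and 0.53 ± 0.08 for Ms4a1. The Blnk difference of 0.27 ± 0.08 there turned to -0.13 when arrays were scaled to pan-leukocyte genes. At 0 w 12 of the 13 hepatocyte genes were lower in DBA/2 than in B6 mice, and their part in the result was not tested. The hepatocyte sum was low in both strains at 4 w, though 3 of the 13 hepatocyte genes were higher in DBA/2 mice. A probe may bind the alleles of the strains unequally, which was not tested either. With normexp 2 probes passed at 0 w and 2 at 4 w, the second Cr2 difference at 0 w turned to -0.031, that of Fcer2a was 0.24 at 0 w, and that of Fcer2a at 4 w turned to -0.053. No slide holds both strains at 0 w or at 4 w, so that slide and strain cannot be told apart there.

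The DBA/2 arrays from 0 w to 8 w shared a slide within each replicate number, which is also the scan day. Within slide 2, 10 of the 12 member probes in week 2, 10 in week 4 and 11 in week 8 lay below 0 w, and within slide 5, 12, 11 and 11. The median difference within slides 2 and 5 was -0.87 and -0.83 at 2 w, -0.34 and -0.35 at 4 w, and -0.51 and -0.51 at 8 w. The DBA/2 9 w arrays lay on other slides, so that slide and week cannot be told apart there, and within the scan days 11 and 11 probes lay below 0 w. In B6 mice 8 of 12 probes lay below 0 w at 4 w within slide 3 and 9 within slide 1, and 1 at 2 w within slide 3, while at 8 w 5 and at 9 w 7 lay below 0 w within slide 1. The share of all probes below 0 w within a slide or scan day was not counted. These counts alone thus do not set the members apart from other probes. The median change of all probes tested in B6 mice was 0.08, -0.03, -0.04 and 0.004 in weeks 2, 4, 8 and 9.

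Other B cell genes were also lower after 0 w in DBA/2 mice. Of 22 tested genes of this list, which holds further genes of the B lineage, 18, 11, 17 and 20 fell in DBA/2 mice in weeks 2, 4, 8 and 9, and none rose. Their median change was -0.73, -0.43, -0.67 and -0.90. In B6 mice 5 rose at 2 w, 6 fell at 4 w, 4 rose and 2 fell at 8 w, and 1 rose and 1 fell at 9 w. Among all probes tested 7.82%, 7.22%, 14.0% and 14.3% fell in DBA/2 mice. In B6 mice 5.28% rose at 2 w, 9.66% fell at 4 w, and 21.2% at 8 w and 9.33% at 9 w moved in either direction. The B6 counts at 8 w and 9 w were near these shares. The same shares stand behind the lists that follow, and the share that rose in DBA/2 mice is not given. Whether other blood leukocytes add to the signal of this list was not tested. Bach2, a transcription factor that restrains plasma cell differentiation, fell by 1.26 ± 0.06 on the mean of 4 w and 8 w in DBA/2 mice (limma adjusted p = 6.1e-07), Fcrla, an Fc receptor-like protein of B cells, by 0.85 ± 0.07 and Ebf1, an early B lineage factor, by 0.82 ± 0.19. In B6 mice the fall of Fcmr, the Fc receptor for IgM, by 0.35 ± 0.07 and of Spib, an Ets family factor, by 0.34 ± 0.06 passed the test on the same mean.

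Genes of B cell receptor signalling that other leukocytes also express did not move together. Of 22 tested, 2 rose and 8 fell at 2 w, 5 rose and 3 fell at 4 w, 5 rose and 6 fell at 8 w, and 4 rose and 6 fell at 9 w in DBA/2 mice. On the mean of 4 w and 8 w Malt1, a paracaspase downstream of antigen receptors, fell by 0.91 ± 0.11, and Hcls1, a Lyn substrate of blood cells, rose by 0.60 ± 0.06. In B6 mice Ptpn22, a lymphocyte phosphatase, fell by 0.46 ± 0.08, and Lyn, a Src family kinase also of myeloid cells, rose by 0.53 ± 0.12.

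Of the 10 genes of immature and germinal centre B cells, 6 could be tested, and the 1 that passed on the mean of 4 w and 8 w was Cd93, which monocytes and neutrophils express too and which rose by 0.86 ± 0.07 in DBA/2 and by 1.16 ± 0.07 in B6 mice. Of the 8 plasma cell genes, 3 fell at 2 w, 2 fell and 1 rose at 4 w, 3 fell and 1 rose at 8 w, and 4 fell and 1 rose at 9 w in DBA/2 mice. Jchain, the joining chain of secreted immunoglobulin, fell by 0.90 ± 0.12 on the mean of 4 w and 8 w in DBA/2 mice and by 1.01 ± 0.12 in B6 mice. Mzb1, an endoplasmic reticulum protein of B and plasma cells, fell by 0.51 ± 0.11 in DBA/2 mice, and Xbp1, a secretory factor that other leukocytes also express, rose by 0.96 ± 0.08 in DBA/2 and by 0.32 ± 0.08 in B6 mice.

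Genes of other leukocytes also moved over these weeks. Of 14 T cell genes 3, 7, 12 and 12 fell in DBA/2 mice in weeks 2, 4, 8 and 9, with a median change of -0.25, -0.40, -0.67 and -0.82, and their summed scaled signal went from 21.2 at 0 w to between 12.1 and 12.6 at 9 w. Cd3e, of the same list, did not fall by the test in DBA/2 mice, with changes of 0.20, 0.03, -0.26 and 0.26 (± 0.28 each). In B6 mice 0, 6, 5 and 8 of the 14 T cell genes fell in the same weeks. Their median change there was 0.05, -0.32, -0.33 and -0.51. Of 10 tested neutrophil genes 8, 9, 10 and 9 rose in DBA/2 mice and 9, 8, 9 and 9 in B6 mice, and S100a8, an abundant mRNA of neutrophils, rose by 3.13 ± 0.07 at 8 w in DBA/2 and by 3.06 ± 0.07 in B6 mice. Of 10 tested monocyte genes 5, 7, 8 and 8 rose in DBA/2 mice in weeks 2, 4, 8 and 9, with 2 lower in week 2, and their median change was 0.47, 1.06, 1.67 and 1.00. In B6 mice 3, 1, 7 and 3 rose and 4 fell in week 4, and the strain difference on the mean of 4 w and 8 w was above 0 for 8 of the 10 by the test, with a median of 1.07. The part of these cells in the members' levels was not tested. When arrays were scaled to the T cell genes, an alternative chosen with the data known, 6 member probes fell in DBA/2 mice at 2 w, none at 4 w or 8 w and 3 at 9 w, while 1 rose at 4 w, 2 at 8 w and 1 at 9 w. On that scale Cd79b fell by 0.75 at 2 w (limma adjusted p = 0.0078) and by 0.44 at 9 w (limma adjusted p = 0.028), and the median of all probes moved by 0.23, 0.36, 0.71 and 0.66 relative to the main scale.

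**Figure D4:**
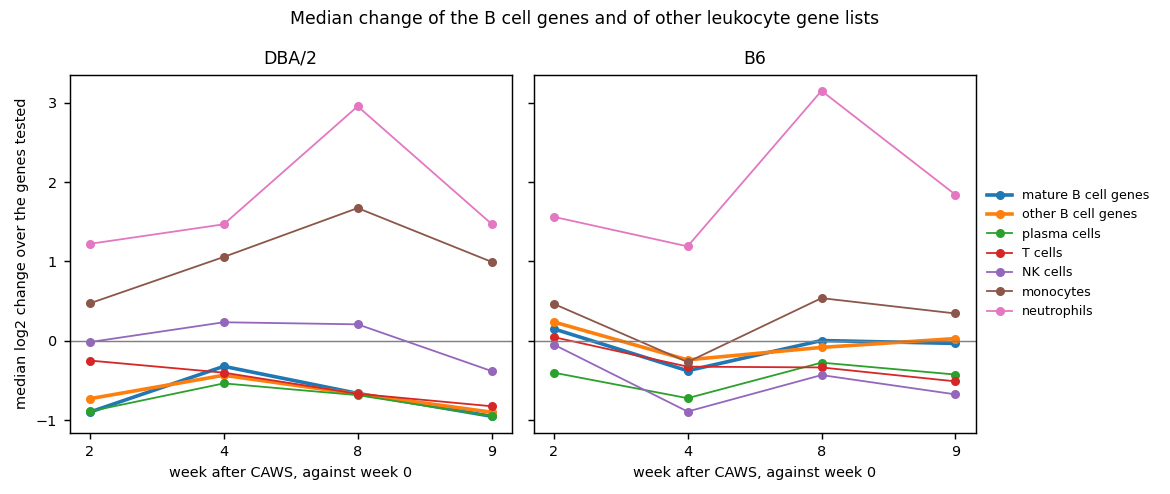
Median log2 change from 0 w (y axis) over the tested genes of each list, by week (x axis), in DBA/2 mice (left) and B6 mice (right). In DBA/2 mice the medians of the mature B cell genes, by each gene's first probe, and of the other B cell genes were -0.90 and -0.73 at 2 w and -0.95 and -0.90 at 9 w, while neutrophil medians were above 0 in both strains.

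Among 12188 probes well above background in all 18 samples, those with the course most like the mean of the members were of Fcrla (r = 0.95 over 18 samples), Ly6d (0.94) and Ighm (0.94), followed by 2010309G21Rik, AF152371, Cables2, Map4k1, Icam2, Bcdin3d and Evl, with r from 0.91 to 0.93. Fcrla and Ighm are also in the list of other B cell genes. The correlations describe samples that share groups, slides and scaling and carry no test.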

How the data were processed

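Leukocyte RNA of 18 samples was hybridized by the authors to 19 single-color Agilent arrays and extracted with Feature Extraction 9.5.3.1, per the labels. The deposited intensity is the processed signal, background-subtracted by that software, and other deposited columns are its flags (well above background, saturated, outlier). The array pair of B6 0 w replicate 2 was taken from the sample titles and averaged. Technical-replicate marks in other label fields appear shifted against the titles. Here outlier and control spots were left out, and log2 signals were centred on each array's 75th percentile of the 11536 probes that every array called well above background. Probes well above background in at least 2 samples were tested by limma 3.58.1 in R 4.3.3 over 10 groups, with Benjamini-Hochberg adjustment. The script was tested on simulated data. Labels call the samples biological replicates; precision is limited by the number of arrays. Probe positions are the files' (mm8); symbols were updated through RefSeq accessions (24375 probes), symbols (6301) or synonyms (2426) of 41174. All members are named, and list genes by change among those past the threshold, of which 1 is not reported here. Members and lists were chosen with earlier results of these data known. The weekly comparisons between later weeks or strains and the T cell scaling were added after seeing the data. The authors' value table equals the processed signal and served as an alternative without scaling between arrays.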

Additional observations from a re-analysis of the deposited data

Results flagged for a closer look

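The change from 0 w differed between the strains, by the limma contrast of the DBA/2 change minus the B6 change with an adjusted p below the threshold, for the following log2 differences. On the mean of 4 w and 8 w it was -0.47 for Cd79b, -0.70 for Cd22, -1.02 for the second Cr2 probe and -0.56 for Fcer2a. At 2 w it was -1.38 for Cd79b, -0.84 for Blnk, -0.98 for Cd22, -1.39 for the second Cr2 probe, -1.12 for Fcer2a, and -1.50 and -1.63 for the first and second Ms4a1 probes. At 8 w it was -0.65 for Cd79b, -0.38 for Blnk, -1.12 for Cd22, -1.43 for the second Cr2 probe, -0.94 for Fcer2a, -0.60 and -0.47 for the Ms4a1 probes and -1.44 for Pax5. At 9 w it was -0.996 for Cd79b, -0.75 for Blnk, -0.53 and -2.55 for the Cd22 probes, -1.64 for the second Cr2 probe, -1.50 for Fcer2a, and -0.92 and -1.07 for the Ms4a1 probes. Those of 2 w and 9 w use 1 B6 sample each, and all rest on B6 samples at 0 w that were high in hepatocyte genes, whose part was not tested.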

How the results depend on the processing

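Numbers here are member probes called of 12 unless a log2 value is named, and the cause of a change was not tested. All shares of probes given above are those of the main fit. No such share was taken under another setting or with a sample left out. Under normexp the median change of all probes moved by -0.59 to 0.81 over the comparisons, with 0.81 at 9 w in DBA/2 mice. With normexp the counts in DBA/2 mice were 3, 0, 2 and 5 in weeks 2, 4, 8 and 9 and 2 on the mean of 4 w and 8 w, 0 in B6 mice in weeks 2, 4 and 8 and on the mean, 0 for the strain difference, 2 between strains at 0 w and at 4 w, 0 from 2 w to 4 w and from 4 w to 8 w and 3 from 8 w to 9 w in DBA/2 mice, 0 for B6 4 w against 2 w and 9 w, and 3, 0 and 3 for the weekly strain differences in weeks 2, 8 and 9. Log2 values that turned under normexp were 0.74 for Blk, 0.76 for the second Cd22 probe and 0.36 for the second Cr2 probe at 9 w in DBA/2 mice, -0.14 at 8 w and -0.0053 on the mean for the second Cr2 probe in B6 mice, -0.031 for that probe between strains at 0 w, -0.053 for Fcer2a between strains at 4 w, 0.20 for Fcer2a from 8 w to 9 w, and 0.95 and 0.46 for the second Cd22 and Cr2 probes in the strain difference at 9 w. With the T cell scaling the counts were 1, 2 and 4 in weeks 4, 8 and 9 and 1 on the mean in DBA/2 mice, 2, 1, 4 and 2 at the weeks and 2 on the mean in B6 mice, 0 for the strain difference, 0 from 4 w to 8 w, 3 from 8 w to 9 w, 2 for B6 4 w against 2 w and 9 w, and 3, 2 and 3 for the strain differences in weeks 2, 8 and 9. Log2 values that turned in DBA/2 mice were 0.072 for Blnk and 0.042 for Ms4a1 at 4 w, 0.017 for Cd79b, 0.27 for Blnk and 0.28 and 0.41 for the Ms4a1 probes at 8 w, 0.17 for Blnk and 0.16 and 0.26 for the Ms4a1 probes on the mean, and 0.065 for Cd22 from 4 w to 8 w. With pan-leukocyte scaling the counts were 7 and 2 at 8 w and 9 w and 8 on the mean in B6 mice, 7 for the strain difference, 3 from 2 w to 4 w in DBA/2 mice, 3 for B6 4 w against 2 w and 9 w and 7 for the strain difference at 4 w, and Blnk turned to -0.13 between strains at 4 w. The authors' value table was used without scaling between arrays, and under it the median change of all probes moved by -0.60 to 1.02. With that table the counts were 2, 1, 10 and 5 at the weeks and 7 on the mean in B6 mice, 10 for the strain difference, 11 between strains at 0 w and at 4 w and 10 from 2 w to 4 w. Without the filter on dim probes they were 4 on the DBA/2 mean, 2 and 0 at 2 w and 4 w and 0 on the mean in B6 mice, 1 for the strain difference, 0, 0 and 3 between successive DBA/2 weeks, 2 for B6 4 w against 2 w and 9 w, and 3 and 5 for the strain differences at 8 w and 9 w. With the percentile over all probes they were 2 for B6 4 w, 2 for the strain difference, 1 from 4 w to 8 w and 3 for B6 4 w against 2 w and 9 w. Quantile normalization gave 2 for B6 8 w and 1 from 4 w to 8 w, where the array median, either array of the pair alone, and a fit without B6 0 w and 8 w also gave 1. The first array alone gave 1 for B6 9 w and array weights 2 on the B6 mean. A fit of DBA/2 mice alone gave 3, 1 and 3 between successive weeks, and one of B6 mice alone 2, 1 and 2 in weeks 2, 4 and 8 and 3 for 4 w against 2 w and 9 w. With slide as a random block the counts were 1 for B6 9 w, 9 from 2 w to 4 w, 4 from 4 w to 8 w and 2 for the strain difference at 4 w.

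Over all pairs of groups the correlations of same-numbered deviations ran from -0.011 to 0.455, so that the numbers do not pair all samples. They were from 0.334 to 0.403 among the DBA/2 groups from 0 w to 8 w, which share a slide within each number, and from 0.286 to 0.455 among the B6 groups of 0 w, 4 w and 8 w. With the replicate number as a block, 1 probe was called for B6 9 w, 3 on the B6 mean, 8 from 2 w to 4 w, 5 from 4 w to 8 w and 2 for the strain difference at 4 w, and no single member lost its call.

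With each sample left out in turn, a lone sample being assumed to vary like the other groups, the counts ranged in DBA/2 mice from 6 to 9 at 2 w, 3 to 7 at 4 w, 6 to 8 at 8 w, 8 to 11 at 9 w, 3 to 8 on the mean, 1 to 7 from 2 w to 4 w, 0 to 2 from 4 w to 8 w and 4 to 5 from 8 w to 9 w. In B6 mice they ranged from 2 to 4 at 2 w, 1 to 7 at 4 w, 0 to 2 at 8 w, 0 to 1 at 9 w, 0 to 2 on the mean and 4 to 8 for 4 w against 2 w and 9 w. They ranged from 1 to 4 for the strain difference, 5 to 8 and 4 to 7 between strains at 0 w and 4 w, and 6 to 10, 0 to 1, 5 to 8 and 6 to 9 for the strain differences in weeks 2, 4, 8 and 9. Signal over background limits Blk and the second probes of Cd22 and Pax5.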
